A study of Mus musculus with 28 samples.

Results

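The response of mouse bone marrow-derived macrophages to lipopolysaccharide (LPS) was measured on 14 single-colour arrays, 7 of LPS-treated cells and 7 of untreated cells, chosen by their titles from the 28 arrays of the series. All cells came from marrow of C57BL6/J mice aged 8 to 12 weeks, pooled over several animals, and the labels name 2 males and 1 female. Marrow cells were grown in human recombinant CSF1, the macrophage growth factor, at 200 ng/ml, and the incubation began on day 7. The LPS group received LPS at 10 ng/ml for the last 4 h of an 18 h incubation, and the untreated group had no LPS. Neither group received IL-4 or IFN-γ, with which the other 14 arrays were primed. The series describes its repeats as independent experiments, and each array carries an experiment letter from A to G. These are CSF1-grown cultures of pooled marrow, so the arrays hold no spread between single animals.

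LPS is a cell wall component of Gram-negative bacteria. On macrophages it is passed by CD14 to the receptor TLR4 with its partner MD-2, which signals through the adaptor MyD88 to NF-κB and MAP kinases and through the adaptor TRIF to IRF3 and interferon beta. Interferon beta then acts back on the same cells and switches on antiviral genes, while NF-κB targets include both cytokines and the inhibitors that end the response.

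The arrays were compared as log2 signal after each array's 75th percentile had been set to 0, called scaled signal here, and the levels of different genes are not comparable on it. The 75th percentile before scaling ran from 769 to 1284 intensity units on LPS arrays and from 1188 to 2113 on untreated arrays. Probes well above background made up 60.0% to 72.1% of gene probes on LPS arrays and 65.0% to 78.6% on untreated arrays. Arrays of a group correlated at 0.940 or more across genes, and an LPS array and an untreated array at up to 0.947. The LPS array labelled C and the untreated array labelled G stood apart most often, and their single values are given in the closing section. The macrophage markers Csf1r and Cd68 were bright in both groups and did not pass the test. Of the 12 macrophage markers tested 7 rose with LPS and 0 fell, against 3 and 3 with quantile normalization. The macrophage marker Csf1r, the CSF1 receptor, had scaled signals of 5.62 to 6.53 (median 6.02) with LPS and 5.94 to 6.90 (median 6.05) without, and its change of -0.11 ± 0.21 (log2 ± SE) did not pass the test (adjusted p = 0.735, limma). The endosomal glycoprotein gene Cd68 gave 5.86 to 6.37 with LPS and 6.01 to 6.29 without.

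Of 22446 genes tested, limma called 9500 (42.3%) at a Benjamini-Hochberg adjusted p under 0.05. LPS raised 4674 genes (20.8%) and lowered 4826 (21.5%). At least 2-fold changes made up 2631 of the rises and 2929 of the falls, at least 4-fold changes 1020 and 969, and at least 16-fold changes 209 and 80. The median change over all genes tested was 0.05. For 2820 genes (12.6%) all LPS arrays lay above all untreated arrays, and for 2859 (12.7%) all lay below. In bulk cultures fewer cells of a type and less RNA per cell cannot be told apart. The median SD of a gene over the arrays of its group was 0.50 with LPS and 0.41 untreated.

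**Figure D1:**
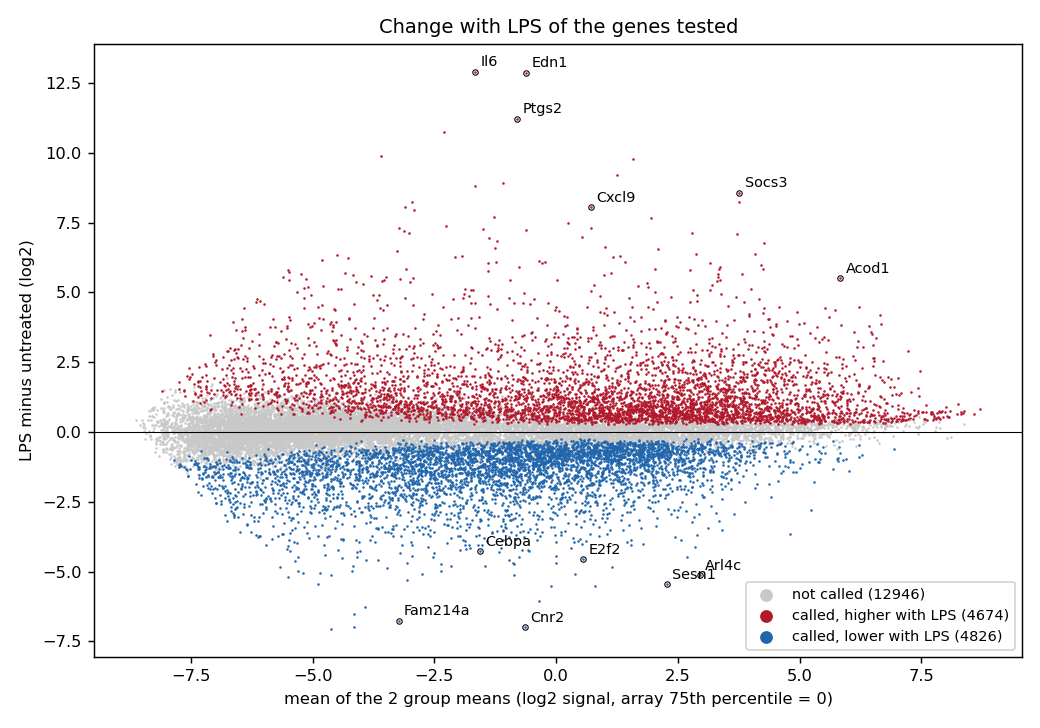
Change with LPS of each gene tested (y, log2 LPS minus untreated) against the mean of the 2 group means (x, log2 signal with the array's 75th percentile at 0). Red points are the 4674 genes called higher, blue points the 4826 called lower and grey points those not called; the largest rises, led by Il6 and Edn1, reach further from 0 than the largest falls.

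Arrays of both groups shared 5 slides and 5 scan days. The 14 arrays lay on 9 slides, so the slide differences leave out some arrays. The direction of 8902 called genes (93.7%) was shared by all 5 slides, and that of 9026 by all 5 scan days. These differences come from arrays that also gave the calls, so the shares are no separate check. A fit that blocked on slide called 12938 genes, 7266 higher and 5672 lower, and one that blocked on scan day called 12130. The pair on slide 1, which holds the LPS array labelled C, showed the smallest changes. Over the 5560 genes called with at least a 2-fold change, the change on slide 1 had a median of 0.885 times the all-array change, against 0.957 to 1.04 times on the other 4 slides.

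Il6, the gene of interleukin 6, was among the largest rises of the named genes. It had scaled signals of 3.08 to 5.95 (median 5.02) on LPS arrays, against -9.20 to -7.22 (median -7.98) on untreated arrays, where it was never well above background. It was therefore at least 2735-fold higher with LPS, a bound set by the lowest signal called well above background on each untreated array (adjusted p = 1.03e-16, limma). Edn1, which codes for the vasoconstrictor peptide endothelin-1, gave 5.20 to 6.21 with LPS and -7.74 to -5.28 untreated, a change of 12.87 ± 0.32, with 2 of 7 untreated arrays well above background. Ptgs2, the inducible prostaglandin synthase, changed by 11.22 ± 0.40 with LPS arrays between 4.55 and 5.04 and untreated arrays between -7.44 and -5.33. The 7 LPS arrays of Ptgs2 thus spanned less than 1 doubling while the untreated ones, well above background on 3 arrays, spanned more.

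Other genes were among the 25 largest rises. Shisa3, a gene of the Shisa adaptor family, was at least 835-fold higher, and Itgb8, the integrin subunit that with its partner frees active TGF-β, at least 249-fold higher; neither was well above background on any untreated array. Serpinb2 (7.29 ± 0.40), an inhibitor of plasminogen activators, and the aggrecan-cleaving protease gene Adamts4 (7.37 ± 0.51) rose. Rises were also found for the transcriptional repressor gene Gfi1 (8.80 ± 0.38), the forkhead factor gene Foxl2 (7.23 ± 0.45), the phenylalanine-oxidising enzyme gene Il4i1 (7.66 ± 0.29), the cytokine genes Il19 (7.95 ± 0.48), Il12b (8.92 ± 0.42) and Il1a (7.31 ± 0.52), and the zinc finger gene Zfp811 (7.13 ± 0.34). Untreated arrays well above background numbered 5 for Adamts4 and Il12b, 4 for Gfi1, 3 for Il19 and Zfp811 and 2 for Il1a, so these changes include values near background. Within the 5 slides the rise of Adamts4 ranged from 3.62 to 8.77, the smallest on the slide of the LPS array labelled C.

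Cnr2, the cannabinoid receptor of immune cells, had scaled signals of -5.29 to -2.33 (median -4.51) with LPS, against 2.26 to 3.51 (median 2.79) untreated, and fell by 6.98 ± 0.41 (adjusted p = 4.26e-13, limma). Fam214a fell by 6.75 ± 0.41 and was well above background on 2 LPS arrays and all 7 untreated arrays. Ccsap, a centriole and spindle-associated protein gene, was at least 37.4-fold lower, Tmem154 at least 15.4-fold, Galnt9 at least 13.8-fold, Map3k9 at least 10.7-fold and Vash2 at least 9.18-fold, since none of these was well above background with LPS. No array of the LPS group reached the lowest untreated array for any of these genes.

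For Sesn1 and Arl4c all arrays of both groups were well above background. Sesn1, a stress sensor that restrains mTORC1, gave -1.01 to 0.17 with LPS and 4.46 to 5.73 untreated, a change of -5.46 ± 0.27. Arl4c, a small GTPase gene, gave -0.39 to 1.11 with LPS and 5.00 to 6.14 untreated, a change of -5.13 ± 0.25. The chemokine receptor gene Cxcr4 (-5.09 ± 0.34), the polycomb gene Cbx8 (-4.87 ± 0.30) and the corepressor gene Irf2bp2 (-4.85 ± 0.41) also fell. Plekhg3 (-6.05 ± 0.30), Slc26a11 (-5.52 ± 0.30), Tmem86a (-5.50 ± 0.31), Zfyve28 (-5.29 ± 0.50), Fam78a (-5.13 ± 0.26), Tmem273 (-5.10 ± 0.31) and Depdc7 (-4.98 ± 0.34) were also among the 25 largest falls. With LPS, Depdc7 was well above background on 1 of 7 arrays, Zfyve28 on 3, Cbx8 on 4 and Cxcr4 on 6, so their falls include values near background.

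**Figure D2:**
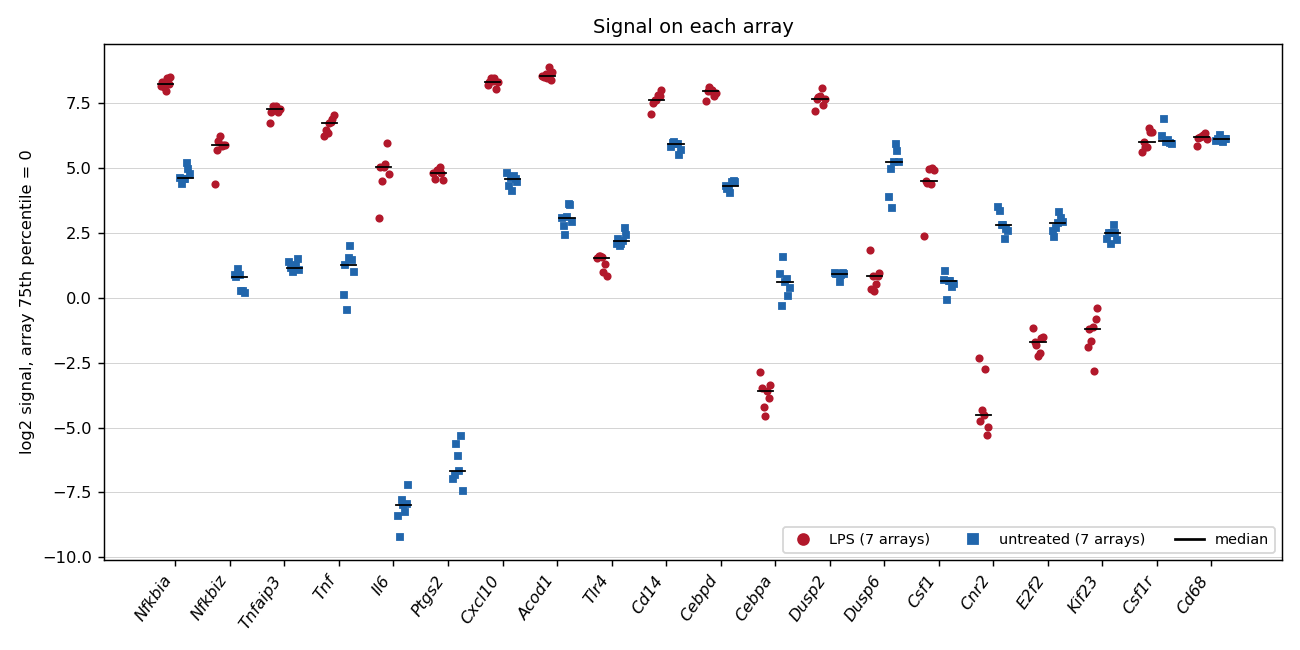
Scaled log2 signal (y, array's 75th percentile = 0) of 20 genes on each of the 7 LPS arrays (red circles) and 7 untreated arrays (blue squares), with the group median as a black line. The groups are apart for all genes shown except Csf1r and Cd68, and the LPS array labelled C is the lowest of its group for Nfkbiz and Csf1.

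At the receptor itself the signal changed in opposite directions along the complex. Tlr4, the LPS receptor gene, gave 0.86 to 1.60 (median 1.52) with LPS and 1.99 to 2.71 (median 2.17) untreated, and fell by 0.90 ± 0.22 (adjusted p = 0.0012, limma), a fall that did not pass when all probes of a gene were averaged. Cd14, which hands LPS to the receptor, rose by 1.80 ± 0.15, with 7.09 to 7.99 on LPS arrays and 5.50 to 5.99 on untreated arrays. Ly96, the MD-2 subunit that binds LPS, rose by 1.51 ± 0.20. Of 8 genes of the complex and its co-receptors 4 rose and 1 fell, with a median of 0.46 beside 0.05 over all genes, against 2 and 3 with quantile normalization and 2 and 1 with normexp background correction. Ly86 (0.87 ± 0.23) and the integrin gene Itgam (0.54 ± 0.16) rose as well, and the change of Itgam turned to -0.078 with quantile normalization. Itgb2 (0.12 ± 0.11), the LPS-binding protein gene Lbp (0.37 ± 0.27) and the TLR4 homologue gene Cd180 (-0.40 ± 0.27) did not pass.

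The other Toll-like receptor genes mostly rose, 7 of 9 with 1 fall. Tlr3, the receptor of double-stranded RNA, rose most (3.20 ± 0.22), followed by the lipoprotein receptor genes Tlr6 (2.53 ± 0.18), Tlr1 (2.27 ± 0.13) and Tlr2 (2.06 ± 0.19). Tlr5, the flagellin receptor gene, fell by 1.85 ± 0.31, with arrays at -4.61 to -2.98 under LPS and -2.54 to -1.58 untreated. Tlr9, for unmethylated DNA, changed by 0.30 ± 0.16 and did not pass.

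Downstream of the receptor the MyD88 arm had 9 rises and 3 falls among 13 genes. The ubiquitin ligase gene Peli1 (3.61 ± 0.19), the MAP kinase kinase kinase gene Map3k8 (3.10 ± 0.24), the kinase gene Irak2 (2.88 ± 0.16), the adaptor gene Myd88 itself (2.36 ± 0.12) and the inhibitory family member gene Irak3 (2.14 ± 0.21) rose. The kinase genes Irak1 (-0.59 ± 0.10) and Irak4 (-0.76 ± 0.15) fell, and so did Tab1 (-1.79 ± 0.21), a partner of the kinase TAK1. The alternative partner gene Tab2 rose by 1.62 ± 0.13, so the 2 partner genes moved apart. Tirap (1.10 ± 0.11), Map3k7 (0.49 ± 0.16), the gene of TAK1, and Tab3 (0.47 ± 0.13) rose, and Traf6 (0.41 ± 0.17) did not pass although its groups did not overlap.

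In the TRIF arm 6 of 8 genes rose and 1 fell. The kinase genes Ikbke (2.51 ± 0.17) and Tbk1 (1.62 ± 0.10), the interferon regulatory factor gene Irf7 (1.59 ± 0.19) and the adaptor genes Ticam2 (1.07 ± 0.29) and Ticam1 (0.65 ± 0.17), the gene of TRIF, rose. Traf3, an adaptor gene of interferon induction, fell by 1.30 ± 0.21. The kinase gene Ripk1 rose by 0.69 ± 0.12 on its brightest probe, but another of its probes fell by 1.20, and the mean of its probes gave -0.051. Irf3, whose protein is activated by phosphorylation, changed by -0.28 ± 0.15 and did not pass.

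**Figure D3:**
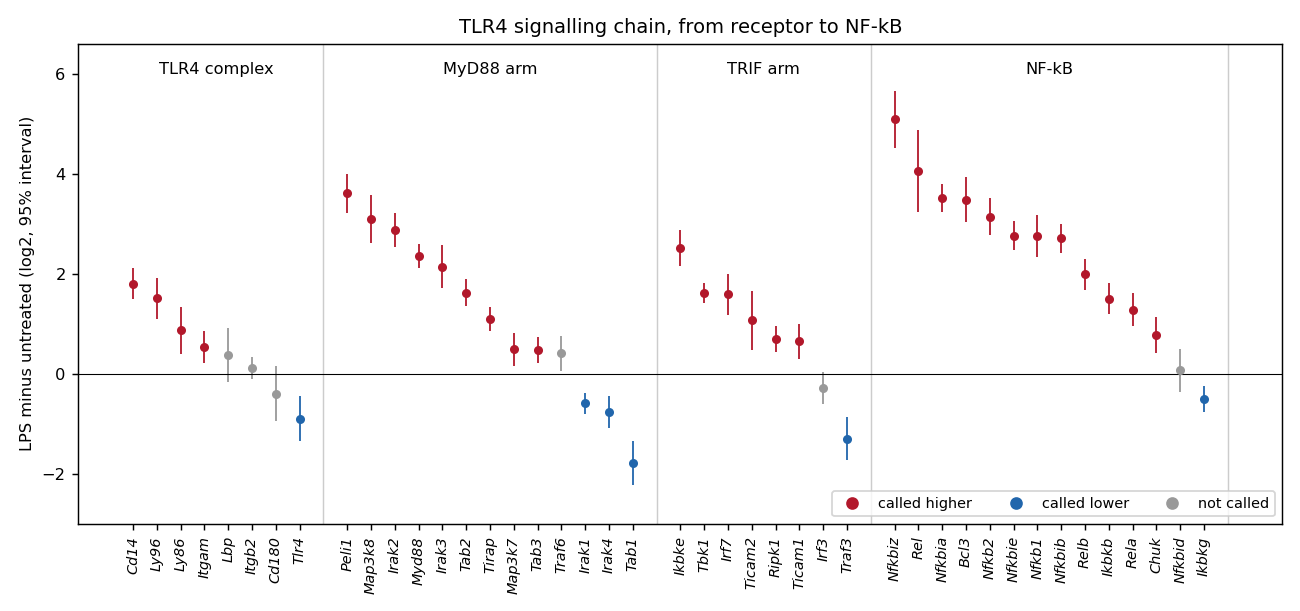
Change with LPS (y, log2 LPS minus untreated, bars are 95% intervals) of the genes of the TLR4 complex, the MyD88 arm, the TRIF arm and NF-κB, sorted within each group. Red marks genes called higher, blue genes called lower and grey genes not called; Tlr4, Irak1, Irak4, Tab1, Traf3 and Ikbkg lie on the lower side.

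NF-κB subunits and inhibitors rose together, 12 of 14 with 1 fall and a median of 2.74. The inhibitor gene Nfkbia, which codes for IκBα, gave 7.96 to 8.49 (median 8.22) with LPS and 4.38 to 5.20 (median 4.61) untreated, a change of 3.52 ± 0.13 or 11.5-fold (adjusted p = 2.04e-16, limma). The nuclear family member gene Nfkbiz rose most, by 5.09 ± 0.28. The subunit genes Rel (4.06 ± 0.40), Nfkb2 (3.14 ± 0.18), Nfkb1 (2.76 ± 0.20), Relb (1.99 ± 0.15) and Rela (1.29 ± 0.16) rose, as did Bcl3 (3.48 ± 0.22), Nfkbie (2.77 ± 0.14) and Nfkbib (2.71 ± 0.14). Of the kinase complex that marks the inhibitors for destruction, Ikbkb (1.50 ± 0.15) and Chuk (0.77 ± 0.17) rose. Ikbkg, its scaffold gene, fell by 0.50 ± 0.13 on the brightest probe, while another probe rose by 0.73. Nfkbid (0.07 ± 0.21) did not pass.

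Promoter sequences show where letters of the kind bound by NF-κB can lie in such genes. RefSeq gives the 250 bases before and 50 after a gene's start for 27025 gene symbols (build GRCm38.p6), and 13549 of the genes tested matched. The search used a fixed κB-type pattern and not the κB consensus itself. Sites of NF-κB with other letters were therefore not counted, and a match need not fit the consensus. The κB-type pattern, of 10 letters, was searched on both strands, and overlapping matches were allowed. It was held by 512 of all 27025 genes (1.89%), by 32 of the 672 matched genes called at least 4-fold higher (4.76%), by 8 of the 597 called at least 4-fold lower (1.34%), by 3 of 10 matched genes of the NF-κB list and by 3 of 6 matched neutrophil-attracting CXC chemokine genes. Windows of the 120 bases before the start are shown for 4 genes that rose and hold it, on the gene's strand, with the pattern in capitals. They are Cxcl1 (chr5:90891125-90891244, + strand), Cxcl2 (chr5:90903779-90903898, + strand), Il6 (chr5:30012994-30013113, + strand) and Nfkbia (chr12:55492648-55492767, - strand).
Cxcl1: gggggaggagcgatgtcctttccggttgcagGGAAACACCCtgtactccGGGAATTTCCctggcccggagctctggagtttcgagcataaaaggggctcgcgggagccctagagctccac
Cxcl2: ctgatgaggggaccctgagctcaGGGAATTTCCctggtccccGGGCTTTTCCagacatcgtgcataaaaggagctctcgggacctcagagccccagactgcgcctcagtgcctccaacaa
Il6: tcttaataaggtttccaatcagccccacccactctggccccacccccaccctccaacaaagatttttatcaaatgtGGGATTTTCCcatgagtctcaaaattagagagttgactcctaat
Nfkbia: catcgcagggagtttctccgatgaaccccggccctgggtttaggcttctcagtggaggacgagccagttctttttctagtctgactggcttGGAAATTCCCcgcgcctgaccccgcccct
The pattern begins 89 and 71 bases before the start in Cxcl1, 97 and 78 in Cxcl2, 44 in Il6 and 29 in Nfkbia. A match describes letters, not binding.

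Inhibitors of the response rose beside it, but not all of them. Of 15 negative regulators of NF-κB and of mRNA stability, 10 rose and 3 fell. Tnfaip3, the ubiquitin-editing enzyme A20, gave 6.74 to 7.41 with LPS and 1.00 to 1.49 untreated (5.99 ± 0.17). Tnip3 (5.22 ± 0.24) and the ribonuclease genes Zc3h12a (3.82 ± 0.25) and Zc3h12c (3.41 ± 0.17) rose, whereas the mRNA decay factor gene Zfp36l1 fell by 3.36 ± 0.26. Among cytokine signalling suppressors 6 of 10 rose and 2 fell. Socs3 rose by 8.58 ± 0.25, Socs1 by 5.65 ± 0.19 and Cish by 4.10 ± 0.52. Cish varied most of these, from -0.35 to 3.41 over the LPS arrays and from 2.16 to 5.68 over the 4 slides that gave a value.

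The MAP kinase phosphatases split, with 4 rises (36.4%) and 5 falls (45.5%) among 11, beside 20.8% and 21.5% over all genes. Dusp2, a nuclear phosphatase gene of immune cells, gave 7.19 to 8.09 with LPS and 0.59 to 0.96 untreated and rose by 6.78 ± 0.20. Dusp1 (4.03 ± 0.24) and Dusp16 (3.72 ± 0.19) also rose. Dusp6, the cytoplasmic phosphatase gene for ERK, gave 0.25 to 1.83 with LPS and 3.45 to 5.93 untreated and fell by 4.10 ± 0.43, and Dusp7 of the same subfamily fell by 2.24 ± 0.37. Dusp10 (0.30 ± 0.18) did not pass.

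Transcription factors of macrophages changed in both directions. Of 16 lineage factor genes 8 rose and 5 fell, against 8 and 3 with normexp. Cebpd gave 7.58 to 8.12 with LPS and 4.04 to 4.51 untreated (3.58 ± 0.28), and Cebpb rose by 2.48 ± 0.19. Cebpa, the family member of myeloid differentiation, gave -4.55 to -2.85 with LPS and -0.31 to 1.58 untreated and fell by 4.27 ± 0.27. Tfec rose by 2.42 ± 0.16, while Maf (0.14 ± 0.23) and Mef2a (-0.18 ± 0.18) did not pass.

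Of 21 immediate early and AP-1 genes 12 rose and 5 fell at this 4 h time point, against 8 and 2 with normexp. Batf (4.90 ± 0.13) and Batf2 (4.64 ± 0.15) rose most, followed by Maff (3.49 ± 0.23), Ier3 (3.06 ± 0.30) and Junb (2.53 ± 0.14). Myc (0.20 ± 0.44) and Fosl1 (0.19 ± 0.26) did not pass; Myc ranged from 0.02 to 0.98 with LPS and from -1.95 to 1.75 untreated. Among KLF and nuclear receptor genes 7 of 19 rose and 5 fell, 36.8% and 26.3% beside 20.8% and 21.5% over all genes. The largest were the falls of Klf10 (-3.65 ± 0.36), a TGF-β response gene, and of Rxra (-3.55 ± 0.21), the shared partner of many nuclear receptors, and the rise of Klf7 (3.51 ± 0.18). Klf6 rose by 1.86 ± 0.12 and Ppard (-0.08 ± 0.44) did not pass.

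Cytokine families rose on both the activating and the restraining side. In the IL-1 family 9 of 12 genes rose and 1 fell. Il1b gave 6.28 to 6.62 with LPS and -4.29 to -1.12 untreated (9.77 ± 0.45). Il1rn, the receptor antagonist gene, rose by 6.04 ± 0.29, and Il33, the 1 member of this list well above background only with LPS, was at least 4.57-fold higher. Il1rl1, the receptor gene of IL-33, fell by 3.02 ± 0.38 and the decoy receptor gene Il1r2 (0.09 ± 0.28) did not pass. In the IL-6, IL-10 and IL-12 families 10 of 14 rose and 1 fell, and 1 of the 14, Il6, was well above background only with LPS. Il10 (4.48 ± 0.21), the suppressive cytokine gene, and Il27 (4.47 ± 0.31) rose with Il6 and Il12b.

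Of the TNF superfamily 12 of 17 genes rose and 4 fell. Tnf gave 6.22 to 7.05 with LPS and -0.48 to 2.00 untreated, a rise of 5.65 ± 0.30. The death ligand gene Tnfsf10 (4.88 ± 0.17), the OX40 ligand gene Tnfsf4 (4.63 ± 0.26), the 4-1BB ligand gene Tnfsf9 (4.15 ± 0.37) and the death receptor gene Fas (3.85 ± 0.19) rose. Among growth factors 9 of 18 rose and 3 fell, against 7 and 7 with quantile normalization and 5 and 2 with normexp. Inhba (4.89 ± 0.26), an activin subunit gene, and Csf1 (3.81 ± 0.36), the gene of the macrophages' own growth factor, rose, while Csf1r did not pass. Csf1 read 2.37 on the LPS array labelled C and 4.39 to 5.00 on the other 6 LPS arrays, against -0.09 to 1.04 on untreated arrays. Tgfb1 (-0.10 ± 0.18) did not pass.

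Chemokine genes rose. Of 14 CC chemokines 13 rose and 0 fell, with a median of 3.94, and with quantile normalization 12 rose and 1 fell. Ccl8 (6.05 ± 0.29), Ccl22 (5.18 ± 0.51), Ccl7 (5.11 ± 0.58), Ccl12 (4.95 ± 0.40) and Ccl5 (4.48 ± 0.19) led, and Ccl6 (-0.05 ± 0.20) did not pass. Ccl22 was well above background on 2 of 7 untreated arrays. Of 7 neutrophil-attracting CXC genes 4 rose and 0 fell, against 3 and 0 with quantile normalization or normexp, and 1 of the 7 was well above background only with LPS. Cxcl3, well above background on 2 of 7 untreated arrays, rose by 8.07 ± 0.51, Cxcl1 by 6.12 ± 0.44 and Cxcl2 by 5.04 ± 0.38, and Ppbp (-0.02 ± 0.23) did not pass. Cxcl9 (8.05 ± 0.41), Cxcl11 (7.49 ± 0.29) and Cxcl10 (3.80 ± 0.21), ligands of CXCR3, rose; Cxcl10 gave 8.06 to 8.47 with LPS and 4.13 to 4.82 untreated.

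The receptors that read such signals were divided. Among 11 chemokine receptor genes 5 rose (45.5%) and 4 fell (36.4%), beside 20.8% and 21.5% over all genes. Ccrl2, an atypical receptor gene, rose by 5.41 ± 0.21 and Ccr7, the lymph node homing receptor gene, by 2.38 ± 0.36, whereas Cxcr4, Cxcr3 (-2.79 ± 0.35) and the fractalkine receptor gene Cx3cr1 (-2.42 ± 0.39) fell. Of 23 chemoattractant, nucleotide and lipid receptor genes 12 rose and 6 fell. The formyl peptide receptor genes Fpr1 (6.32 ± 0.31) and Fpr2 (6.09 ± 0.30) and the medium-chain fatty acid receptor gene Gpr84 (5.03 ± 0.28) rose. S1pr1, the sphingosine-1-phosphate receptor gene, gave -4.38 to -2.56 with LPS and -0.60 to 1.29 untreated and fell by 4.06 ± 0.34, as Cnr2 did. The complement receptor gene C5ar1 (0.05 ± 0.36) did not pass.

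Genes of the interferon branch rose. Ifnb1, the interferon beta gene, gave -1.29 to 2.36 (median 0.53) with LPS and -5.07 to -3.10 (median -4.39) untreated, a rise of 4.80 ± 0.47 that ranged from 2.91 to 7.05 within slides. All 27 antiviral genes tested rose, with a median of 2.23, and 26 had no overlap between the groups, beside 25.3% of all genes in either direction. With quantile normalization 25 of them were called and with normexp 26. Cmpk2 (4.37 ± 0.22), Mx2 (4.28 ± 0.20), Mx1 (4.05 ± 0.20), Oasl1 (3.76 ± 0.21) and Herc6 (3.73 ± 0.17) rose most. All 14 GTPase genes of the GBP and IRG families rose without overlap, with a median of 3.75. Gbp5 (5.83 ± 0.22), Gbp4 (5.19 ± 0.37), Gbp2 (4.46 ± 0.25), Gbp6 (4.12 ± 0.25) and Iigp1 (3.98 ± 0.27) led. Of 22 genes of interferon beta, IRF and STAT factors 17 rose and 2 fell. Jak2 (4.53 ± 0.19), Stat5a (3.14 ± 0.21), Stat3 (2.87 ± 0.22) and Irf1 (2.58 ± 0.17) rose, and the interferon gamma receptor gene Ifngr1 (-0.09 ± 0.24) did not pass.

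The interferon response element, a pattern of 10 letters searched in the same promoters on both strands, was held by 1079 of 27025 genes (3.99%). Of matched genes called at least 4-fold higher 58 of 672 held it (8.63%) and of those called at least 4-fold lower 9 of 597 (1.51%). It was found in 11 of 19 matched antiviral genes (57.9%) and in all 9 matched GBP and IRG genes. Windows of 120 bases before the start show how it can stand alone, as a pair or in an overlapping run in these genes. They are Ifit1 (chr19:34640769-34640888, + strand), Isg15 (chr4:156200819-156200938, - strand) and Gbp2 (chr3:142620543-142620662, + strand), with matches on either strand in capitals.
Ifit1: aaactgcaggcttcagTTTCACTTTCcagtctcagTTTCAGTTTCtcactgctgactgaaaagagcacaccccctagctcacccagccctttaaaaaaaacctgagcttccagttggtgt
Isg15: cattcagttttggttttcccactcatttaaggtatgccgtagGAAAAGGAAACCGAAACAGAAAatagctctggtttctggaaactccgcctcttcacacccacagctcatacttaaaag
Gbp2: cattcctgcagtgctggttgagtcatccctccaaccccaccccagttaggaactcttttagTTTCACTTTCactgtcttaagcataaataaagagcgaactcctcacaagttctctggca
The matches begin 104 and 85 bases before the start in Ifit1, at 78, 72 and 66 in Isg15, where they overlap, and at 59 in Gbp2. Ifit1, an RNA-binding antiviral gene, rose by 3.46 ± 0.20 and Isg15, a ubiquitin-like modifier gene, by 3.05 ± 0.19. Both were chosen after their values were seen.

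**Figure D4:**
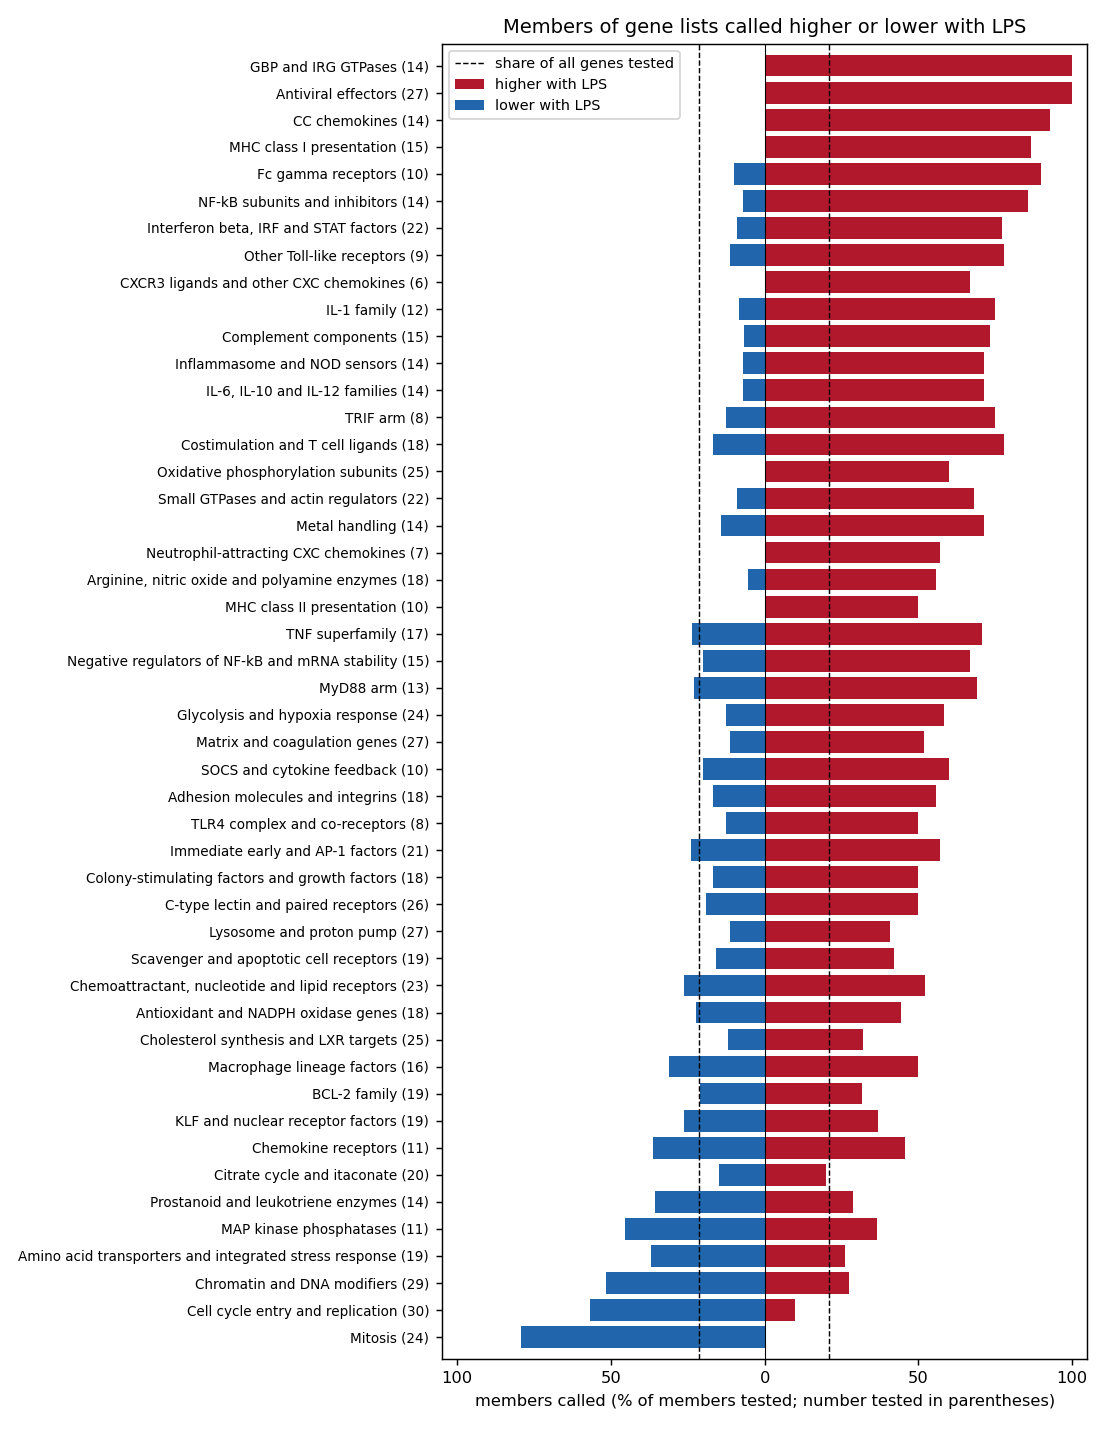
Share of the tested members of each gene list called higher (red, right) or lower (blue, left) with LPS, in percent, with the number tested in parentheses. Dashed lines mark the shares over all genes tested, 20.8% higher and 21.5% lower; the antiviral, GBP and CC chemokine lists have the highest shares called higher and mitosis has none.

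Many cell division genes fell. Of 24 mitosis genes 0 rose and 19 fell, with a median of -1.83. No overlap between the groups was seen for 15 of them, beside 25.3% of all genes in either direction. Kif23, a kinesin gene of cytokinesis, gave -2.83 to -0.39 with LPS and 2.09 to 2.80 untreated (-3.83 ± 0.33). The spindle checkpoint genes Bub1b (-3.28 ± 0.40), Cdc20 (-2.78 ± 0.43) and Ttk (-2.65 ± 0.51) and the kinetochore gene Cenpf (-2.91 ± 0.37) fell, and Cenpe (0.11 ± 0.35) and Tpx2 (0.24 ± 0.18) did not pass. Of 30 genes of cell cycle entry and replication 3 rose and 17 fell. E2f2 gave -2.24 to -1.18 with LPS and 2.36 to 3.31 untreated and fell by 4.56 ± 0.21. Gmnn (-3.43 ± 0.35) and Cdc6 (-3.30 ± 0.32), which control replication licensing, and the nucleotide enzyme gene Rrm2 (-3.13 ± 0.67) fell. Ccnd2, a D-type cyclin gene, rose by 3.06 ± 0.35, while Cdk6 (-0.05 ± 0.27) and Pcna (-0.07 ± 0.25) did not pass.

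Promoters of mitosis genes are known for a CCAAT box and, near the start, the cell cycle homology element, searched here as TTTGAA. The CCAAT box stood in 17 of 20 matched mitosis genes (85.0%), against 11096 of all 27025 genes (41.1%), and the homology element in 14 of 20 (70.0%), against 5466 of 27025 (20.2%). In the 23 matched genes of cell cycle entry and replication the box stood in 15 (65.2%) and the homology element in 2 (8.70%). Of the 597 matched genes called at least 4-fold lower, 292 held the box (48.9%) and 120 the homology element (20.1%). Of the 672 called at least 4-fold higher, 252 (37.5%) and 99 (14.7%) did. Over the 13549 matched genes tested the shares were 42.3% and 16.4%. Both patterns were searched on both strands and do not overlap in the window of Cdc20 (chr4:118437344-118437463, - strand), shown because it holds both, in capitals.
Cdc20: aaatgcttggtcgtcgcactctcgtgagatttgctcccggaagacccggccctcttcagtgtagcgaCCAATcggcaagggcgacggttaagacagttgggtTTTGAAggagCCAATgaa
The box begins 53 and 8 bases before the start and the homology element 18 bases before it.

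Genes of cell survival changed in both directions. Of 19 BCL-2 family and related genes 6 rose and 4 fell, shares of 31.6% and 21.1% beside 20.8% and 21.5% over all genes. The survival gene Bcl2a1b gave 6.82 to 8.10 with LPS and 0.63 to 1.32 untreated (6.36 ± 0.18), and the caspase-8 inhibitor gene Cflar (3.42 ± 0.18) and the inhibitor of apoptosis genes Birc3 (3.05 ± 0.19) and Birc2 (2.25 ± 0.23) rose. Bcl2a1b has near-identical copies in the mouse, so its probe may also read those. Bmf, a gene that promotes cell death, gave -3.77 to -2.12 with LPS and 0.56 to 3.08 untreated and fell by 4.68 ± 0.40. Bad (0.08 ± 0.16) did not pass.

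Of 14 inflammasome and NOD sensor genes 10 rose and 1 fell. Ripk2, the adaptor kinase gene of the NOD sensors, rose by 4.61 ± 0.30, and the sensor genes Nod1 (3.77 ± 0.16) and Nod2 (3.19 ± 0.16) and the LPS-binding caspase gene Casp4 (2.86 ± 0.16) rose with it. Nlrc4 (-0.08 ± 0.27) did not pass. Among prostanoid and leukotriene enzymes 4 of 14 rose and 5 fell, against 4 and 3 with normexp. The main shares were 28.6% and 35.7%, beside 20.8% and 21.5% over all genes. Beside Ptgs2, the prostaglandin E synthase gene Ptges (5.43 ± 0.26) and the phospholipase gene Pla2g4a (2.55 ± 0.39) rose. The prostaglandin-degrading enzyme gene Hpgd (-1.64 ± 0.56) and the constitutive synthase gene Ptgs1 (-1.03 ± 0.38) fell. The fall of Hpgd did not pass without the untreated array labelled G, and that of Ptgs1 did not pass without any one of the LPS arrays labelled A, E and G or the untreated arrays labelled A and G. The leukotriene enzyme gene Alox5 (-0.53 ± 0.52) did not pass.

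Of 20 citrate cycle and itaconate genes 4 rose and 3 fell, shares of 20.0% and 15.0% beside 20.8% and 21.5% over all genes, and of these rises only that of Acod1, the itaconate synthase gene, was more than 1 doubling, with 8.41 to 8.88 under LPS and 2.42 to 3.63 untreated (5.52 ± 0.17). Idh1 (-1.12 ± 0.18) and Aco1 (-0.73 ± 0.17) fell, and Ogdh (-0.01 ± 0.13) and Sdhb (-0.06 ± 0.12) did not pass. In glycolysis and the hypoxia response 14 of 24 rose and 3 fell, against 10 and 7 with quantile normalization. The rises were led by the fructose bisphosphate enzyme gene Pfkfb3 (4.84 ± 0.29), the glucose transporter gene Slc2a6 (3.34 ± 0.12) and the hexokinase gene Hk2 (2.04 ± 0.19). The glucose transporter gene Slc2a3 fell by 1.96 ± 0.29, and Eno1 (0.04 ± 0.21) and Gpi1 (0.03 ± 0.15) did not pass. Of 25 oxidative phosphorylation subunit genes 15 rose and 0 fell, with a median of 0.46; the cytochrome c gene Cycs (1.96 ± 0.19) led. That direction depends on the scaling, and normexp gave 5 rises and 0 falls. With quantile normalization 1 rose and 10 fell, with a median of -0.24, and of the citrate cycle genes 2 rose and 10 fell.

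Quantile normalization turned other lists too. The 5612 genes with the highest mean signal had a median change of 0.25, against -0.20 with quantile normalization. Among 27 lysosome and proton pump genes 11 rose and 3 fell, but 2 rose and 12 fell with quantile normalization, and 5 and 2 with normexp. Of 25 cholesterol synthesis and LXR target genes 8 rose and 3 fell, against 4 and 7 with quantile normalization. The main shares were 32.0% and 12.0%, beside 20.8% and 21.5% over all genes. The 25-hydroxylase gene Ch25h (3.97 ± 0.48) rose, the last-step enzyme gene Dhcr7 (-2.06 ± 0.37) fell, and the LXR target gene Abca1 (0.01 ± 0.27) did not pass. Of 18 antioxidant and NADPH oxidase genes 8 rose and 4 fell, against 6 and 9 with quantile normalization. Their main shares were 44.4% and 22.2%, beside the same 20.8% and 21.5%. Sod2, the mitochondrial superoxide dismutase gene, gave 8.20 to 9.26 with LPS and 4.52 to 5.05 untreated (3.86 ± 0.16), and Prdx5 (2.14 ± 0.19) and the oxidase subunit gene Cybb (1.77 ± 0.21) rose.

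Amino acid and metal handling showed large single changes. Among genes of nitric oxide, arginine and polyamine metabolism 10 of 18 rose and 1 fell, against 10 and 4 with quantile normalization. Nos2, the inducible nitric oxide synthase gene, gave 0.37 to 1.85 with LPS and -8.35 to -4.78 untreated (8.24 ± 0.48), well above background on 1 untreated array, and the arginine transporter gene Slc7a2 (5.37 ± 0.40), the mitochondrial arginase gene Arg2 (4.58 ± 0.54) and the tryptophan enzyme gene Ido1 (3.66 ± 0.36) rose. Slc7a2 and Arg2 lay below the lowest signal called well above background on the untreated arrays labelled A and B. Arg2 also did so on F, so both rises include values near background. Of 19 amino acid transporter and stress response genes 5 rose and 7 fell, against 2 and 8 with quantile normalization and 2 and 4 with normexp. The main shares were 26.3% and 36.8%, beside 20.8% and 21.5% over all genes. Slc7a11, the cystine transporter gene and the 1 member well above background only with LPS, was at least 6.80-fold higher, and Sesn1, Slc38a2 (-1.47 ± 0.19) and Sesn2 (-1.46 ± 0.20) fell. Of 14 metal handling genes 10 rose and 2 fell, with a median of 1.79, and 2 of them were well above background only with LPS. The metallothionein gene Mt2 (6.55 ± 0.28) and the siderophore-binding lipocalin gene Lcn2 (5.92 ± 0.43) rose, and the metalloreductase gene Steap4 was at least 14.6-fold higher. Slc40a1, the iron exporter ferroportin, gave -4.40 to -3.38 with LPS and -1.06 to 1.38 untreated and fell by 4.17 ± 0.33. The ferritin gene Ftl1 (-0.21 ± 0.21) and the transferrin receptor gene Tfrc (-0.40 ± 0.23) did not pass.

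On the cell surface, genes for contact with T cells rose, 14 of 18 with 3 falls. Slamf1 (7.22 ± 0.46), the activation marker gene Cd69 (7.12 ± 0.26), the costimulatory receptor gene Cd40 (5.91 ± 0.15), Cd200 (4.98 ± 0.35) and the PD-1 ligand gene Cd274 (4.45 ± 0.27) rose, and Cd70 (-0.13 ± 0.59) did not pass. On the untreated arrays labelled A, B, F and G, Slamf1 lay below the lowest signal called well above background. The rise of Slamf1 therefore includes values near background. Of 15 MHC class I genes 13 rose and 0 fell, against 9 and 3 with quantile normalization, and the largest was the peptide transporter gene Tap2 (2.17 ± 0.15). Of 10 class II genes 5 rose and 0 fell, and 1 rose with quantile normalization and 2 with normexp. None was without overlap between the groups, beside 25.3% of all genes in either direction. H2-Ab1 rose by 1.21 ± 0.26.

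All 10 Fc gamma receptor and signalling genes changed, 9 rising and 1 falling. The inhibitory receptor gene Fcgr2b gave 6.61 to 7.31 with LPS and 2.88 to 4.20 untreated (3.39 ± 0.19). Inpp5d, which codes for the phosphatase SHIP-1 that this receptor recruits, gave 0.33 to 2.33 with LPS and 4.04 to 4.65 untreated and fell by 2.95 ± 0.23. The activating receptor gene Fcgr4 (2.28 ± 0.28) rose. Among scavenger receptors 8 of 19 rose and 3 fell, with rises of Olr1 (6.17 ± 0.52; 1 untreated array well above background) and Marco (4.03 ± 0.31) and a fall of the haemoglobin receptor gene Cd163 (-2.45 ± 0.29); 7 rose and 8 fell with quantile normalization. Of 26 C-type lectin and paired receptor genes 13 rose and 5 fell, against 11 and 9 with quantile normalization, with a rise of the mycobacterial glycolipid receptor gene Clec4e (4.14 ± 0.22) and falls of Cd300lb (-2.07 ± 0.33) and Cd300lf (-2.04 ± 0.19).

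Adhesion, matrix and complement genes mostly rose. Of 18 adhesion genes 10 rose and 3 fell, against 9 and 7 with quantile normalization, 1 of them well above background only with LPS, with rises of Vcam1 (4.78 ± 0.29), Itgal (3.27 ± 0.28) and Icam1 (3.27 ± 0.16). Of 27 matrix and coagulation genes 14 rose and 3 fell, Vcan (6.85 ± 0.31) and the collagenase gene Mmp13 (5.57 ± 0.23) among the rises. Of 15 complement genes 11 rose and 1 fell, against 6 and 0 with normexp background correction, with the factor B gene Cfb (4.76 ± 0.25), the C1 inhibitor gene Serping1 (3.78 ± 0.46) and C3 (2.90 ± 0.17) leading. Serping1 lay below the lowest signal called well above background on the untreated arrays labelled A, B and C. Its rise therefore includes values near background. C3 gave 8.53 to 9.09 with LPS and 5.33 to 6.18 untreated, whereas C1qa (0.46 ± 0.20) did not pass.

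Chromatin and DNA modifier genes were among the few lists with more falls than rises, 15 against 8 of 29, with a median of -0.60, which was -0.21 with normexp. Hdac5, a histone deacetylase gene, gave 0.40 to 2.30 with LPS and 3.70 to 4.71 untreated and fell by 3.05 ± 0.28. The maintenance DNA methyltransferase gene Dnmt1 (-2.48 ± 0.38) and the demethylase gene Kdm2b (-2.46 ± 0.15) fell. Arid5a (4.47 ± 0.30), whose protein also stabilises Il6 mRNA, and Tet2 (3.22 ± 0.28), which oxidises methylated cytosine, rose, and Kdm6a (0.07 ± 0.20) and Sirt1 (-0.09 ± 0.17) did not pass. Of 22 small GTPase and actin genes 15 rose and 2 fell, with rises of Rasgrp1 (6.08 ± 0.30), Rnd1 (4.84 ± 0.30), the actin-bundling gene Fscn1 (4.07 ± 0.26) and Rhou (4.05 ± 0.17) and the fall of Arl4c.

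**Figure D5:**
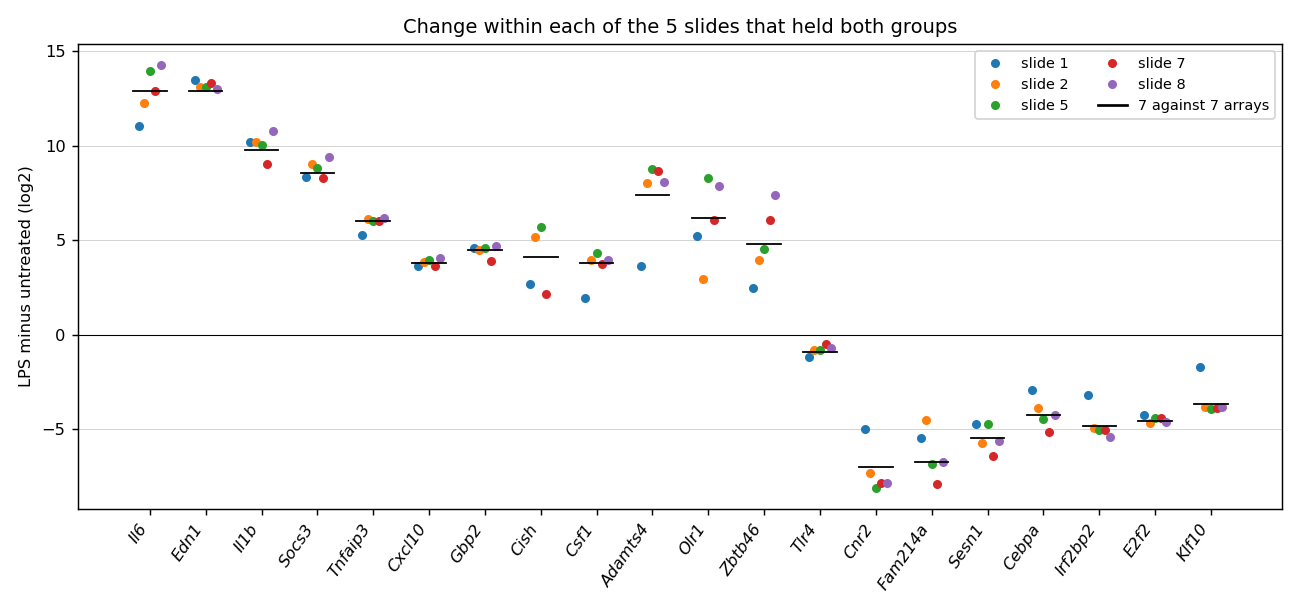
Change with LPS (y, log2 LPS minus untreated) of 20 genes within each of the 5 slides that held 1 array of each group (coloured points) and over all 7 against 7 arrays (black lines). Directions were the same on every slide shown, and slide 1 gave the smallest rise of Csf1 and Adamts4 and the smallest fall of Klf10 and Irf2bp2; Cish has no value on slide 8.

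Control and marker lists are given here beside the shares over all genes tested, of which 20.8% rose and 21.5% fell. Of 11 housekeeping genes 3 rose (27.3%) and 0 fell, with a median of 0.14, and with quantile normalization 1 rose and 4 fell. Of 12 macrophage markers 7 rose and 0 fell, against 3 and 3 with quantile normalization and 3 and 0 with normexp; Adgre1 (0.72 ± 0.17) and Mpeg1 (0.55 ± 0.14) were among the rises and gave -0.055 and -0.20 with it. Of 52 markers tested for T cells, B cells, NK cells, neutrophils, mast cells, fibroblasts, endothelium and erythroid cells, 7 rose, 4 fell and 41 did not pass. Lck (5.09 ± 0.35), Pdgfrb (6.07 ± 0.37) and Kdr (2.44 ± 0.30) rose with LPS and Cd79b (-1.23 ± 0.24) and Vwf (-1.32 ± 0.23) fell, while the defining T cell gene Cd3e (0.78 ± 0.34) did not pass. Of the 8 T cell markers tested 1 rose, Lck, and 1 fell, Cd5. Of 7 dendritic cell markers 2 rose (28.6%), Zbtb46 (4.81 ± 0.48) and Ccr7. The part of other cells in the results was not tested.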

How the data were processed

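Total RNA was labelled with Cy3 and hybridised to Agilent arrays, 1 sample each, per the labels' protocols. The deposited scanner files give each spot's processed signal as an intensity, which the scanner software detrended with its background correction off, per the file headers (Agilent Feature Extraction 9.5.1, per the submitters' processing notes). The authors' series value table was not used, because its column order was in doubt. From the deposited intensities, log2 values were taken after control and outlier spots were left out, arrays were aligned at their 75th percentile, and spots of the same probe were averaged. Of 41174 probes, 22951 were named through RefSeq by accession and 6659 by symbol, 3109 by synonym and 8455 kept the array's name. A gene is represented by its brightest probe, which had to be well above background on at least 3 of the 28 arrays. Means of 6 groups were fitted over all 28 arrays with limma 3.58.1 (R 4.3.3), two-sided, with Benjamini-Hochberg adjustment over 22446 genes, and tables and figures were made with pandas 2.3.3 and matplotlib 3.10.9. The number of arrays limits the precision. The fit was tested on simulated data. Alternatives were normexp, quantile and median scaling, probe filters and averaging, slide, scan day and letter blocks, the 14 arrays alone, and leaving out each array or scan day. Genes were named by rule: the 25 largest rises and falls, up to 5 called members and the 2 largest adjusted p of each list, the receptor and NF-κB lists, and the markers; a few genes that the rule names are not reported here. The gene lists and the comparison were chosen with earlier results of these data known. The letter was not used as a block. Same-letter arrays did not deviate together, but none of these pairs shared a slide or scan day, so a pairing by letter cannot be judged. Arrays on the same slide deviated together, and the fit without a slide block is reported with the counts of the slide-blocked fit beside it.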

Additional observations from a re-analysis of the deposited data

Results flagged for a closer look

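For each named gene and each group of 7 arrays, the highest or lowest array was singled out where its gap to the nearest other array exceeded 0.568 of the group's range. Where an array had no value for the gene, as for Csf1r and Slc7a2 untreated, the cutoff was higher. An array was singled out 51 times over both groups of 278 genes, and chance flags about 1 in 20 groups. All values are scaled signals (log2). Adamts4 at -0.60, Birc2 at 1.88, Birc3 at 5.32, Cd69 at 4.85, Csf1 at 2.37 and Cxcl11 at 3.04 lay below the other arrays of the group on the LPS array labelled C. Mx1 at 5.42, Mx2 at 6.10, Nfkbiz at 4.40, Olr1 at -2.94, Peli1 at 4.89 and Ripk2 at 0.55 lay below the other arrays of the group on the LPS array labelled C. Socs1 at 5.14, Stat5a at 3.52, Tfec at 2.02, Tirap at 0.91 and Tnfaip3 at 6.74 lay below the other arrays of the group on the LPS array labelled C. Fam78a at -1.95, Irf2bp2 at 0.71, Klf10 at 1.14, Slc26a11 at -0.69 and Tab1 at 2.24 lay above the other arrays of the group on the LPS array labelled C. Sirt1 at -0.11 and Slc38a2 at 2.69 lay below the other arrays of the group on the untreated array labelled G. Cd68 at 6.29, Csf1r at 6.90, Edn1 at -5.28, Hpgd at -0.44, Il4i1 at -0.80 and Pfkfb3 at 1.83 lay above the other arrays of the group on the untreated array labelled G. Slc7a2 at -3.49 lay above the other arrays of the group on the untreated array labelled G. Adgre1 at 6.81, Batf2 at 0.84, Dusp2 at 0.59, Junb at 4.84 and Mpeg1 at 7.32 lay below the other arrays of the group on the untreated array labelled E. Ccl8 at 1.66 and Cd70 at -7.54 lay below the other arrays of the group on the LPS array labelled B. Ftl1 at 8.88 and Il1a at 1.37 lay above the other arrays of the group on the LPS array labelled B. Dhcr7 at -0.95 lay below the other arrays of the group on the LPS array labelled E. Ccnd2 at 6.48, Mpeg1 at 8.65 and Tap2 at 5.45 lay above the other arrays of the group on the LPS array labelled E. Itgb2 at 5.00 lay below the other arrays of the group on the untreated array labelled B. Olr1 at -4.63 and Shisa3 at -5.93 lay above the other arrays of the group on the untreated array labelled B. Ccrl2 at 0.01 and Fcgr4 at 2.72 lay below the other arrays of the group on the untreated array labelled F. Lbp at -2.73 lay above the other arrays of the group on the LPS array labelled F. Cd200 at -2.16 lay above the other arrays of the group on the untreated array labelled A. Of these values 22 belong to the LPS array labelled C and 9 to the untreated array labelled G. Csf1 on the LPS array labelled C was nonetheless above every untreated array, and the other LPS arrays read 4.39 or more.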

How the results depend on the processing

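Normexp background correction lowered the number of genes called to 5545, of which 2900 were higher and 2645 lower, and the falls of at least 2-fold to 1471. With it, 5537 of the 9500 called genes were also called. It started from the mean signal and median background of each spot, not the processed signal, and added an offset of 50 intensity units. The loss of calls is therefore not that of background correction alone. Slide as a block raised the genes called higher to 7266, and to 7691 in a fit of the 14 arrays alone, and moved the median change of all genes to 0.17. The cause was not tested. Leaving out single arrays, or single scan days (chosen after seeing the data), gave 8055 to 10250 genes called, 3944 to 5234 higher, 4111 to 5016 lower, 2362 to 2887 at least 2-fold higher and 2708 to 2996 at least 2-fold lower. With quantile normalization Itgam (-0.078), Adgre1 (-0.055) and Mpeg1 (-0.20) changed sign, and with the mean of all probes Ripk1 (-0.051) did. Of the 238 named genes that were called, 19 lost the call with normexp, 5 with median scaling and 2 when any single array was left out. Of the 40 named genes that did not pass, 20 were called under at least 1 alternative, 16 of them with quantile normalization and 6 with slide as a block (C1qa, Cd3e, Ftl1, Irf3, Lbp and Traf6). Dim probes limit what can be measured, since 2907 genes were not well above background on any of the 14 arrays.

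Whether the experiment letters pair the arrays cannot be judged from these values. No LPS and untreated arrays of the same letter shared a slide or a scan day. Residuals of LPS and untreated arrays with the same letter correlated at -0.50 to 0.16, against 0.42 to 0.64 for arrays on the same slide, and 0 LPS arrays correlated best with their own letter. With the letter as a replicate block 9482 genes were called, 4671 higher and 4811 lower, and in a fit of the 14 arrays alone with that block 8270, 3967 higher and 4303 lower.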
